A study of Mus musculus with 6 samples.

Results

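The 3p arms of the let-7 precursors were examined in small RNA-seq of whole brain from wild-type C57BL/6 mouse embryos at E15.5. The members were the 10 rows of the count files with the names mmu-let-7a-1-3p, mmu-let-7a-2-3p, mmu-let-7b-3p, mmu-let-7c-1-3p, mmu-let-7d-3p, mmu-let-7e-3p, mmu-let-7f-1-3p, mmu-let-7f-2-3p, mmu-let-7g-3p and mmu-let-7i-3p, out of 1915 mature miRNAs listed, and the species prefix is left out from here on. There were 3 female and 3 male libraries, and the groups differed in no stated treatment or allele. The methods of the study state that each replicate was a pool of RNA from 2 to 3 individuals and that sex was read from the gonad, so the spread between libraries is a spread between pools and not between single embryos.

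The let-7 miRNAs are a conserved family that rises as cells leave the progenitor state and lowers the output of growth and cell cycle genes. A let-7 precursor is a short hairpin, and Dicer cuts it into a duplex of 2 arms. The 5p arm, or guide, usually enters the Argonaute protein, while the 3p arm, or passenger strand, is mostly discarded and degraded. Several let-7 genes give the same 5p arm, for example let-7a-1 and let-7a-2, but most of the 3p arms differ in sequence, so a 3p read can point to the locus that made it. In progenitors and in the early nervous system, the RNA-binding protein Lin28 holds back let-7 maturation at the precursor stage, so the amount of either arm is set by transcription, maturation and decay together.

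The mature sequences are shown because the differences between them are what separates one locus from another. They were taken from the RefSeq table for GRCm38.p6, which held all 10 members, and the capitals mark the seed, bases 2 to 8 counted from the 5′ end, through which a miRNA in Argonaute recognises its targets.
let-7a-1-3p: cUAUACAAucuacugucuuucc
let-7f-2-3p: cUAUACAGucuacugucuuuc
let-7f-1-3p: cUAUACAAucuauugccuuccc
let-7b-3p: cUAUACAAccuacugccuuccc
let-7d-3p: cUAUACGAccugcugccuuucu
let-7e-3p: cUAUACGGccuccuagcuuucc
let-7a-2-3p: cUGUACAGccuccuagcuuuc
let-7c-1-3p: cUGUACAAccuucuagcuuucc
let-7i-3p: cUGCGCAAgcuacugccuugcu
let-7g-3p: aCUGUACAggccacugccuugc
For contrast, a pair of guide arms carry one and the same seed although their 3p partners do not.
let-7d-5p: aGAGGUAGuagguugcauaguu
let-7g-5p: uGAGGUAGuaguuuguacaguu

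The members were 21 or 22 bases long and carried 8 different seeds. Only let-7a-1-3p, let-7b-3p and let-7f-1-3p had a seed in common, UAUACAA, whereas the 8 guide arms let-7a to let-7i shared GAGGUAG. Among the 45 pairs of members, 1 pair differed at a single base over the bases they have in common, and 3 pairs differed at 2 bases. With positions counted from the 5′ end, let-7a-1-3p and let-7f-2-3p differed by A8G, let-7a-2-3p and let-7c-1-3p by G8A and C12U, let-7a-2-3p and let-7e-3p by G3A and A7G, and let-7b-3p and let-7f-1-3p by C9U and C13U. The number of mismatches allowed on mapping to the miRNAs is not given in the sources used here, so the division of reads within these close pairs is uncertain, most of all for let-7f-2-3p, which is far less abundant than let-7a-1-3p. The sequence of let-7a-1-3p matched mm9 exactly at 2 places, since let-7c-2-3p is identical to it and was listed with the same counts in all 6 libraries. The values of let-7a-1-3p therefore stand for both loci, while each of the other 9 members matched mm9 once.

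The hairpins were placed on mm9, the build named by the submitters, by exact match of the RefSeq sequences, with hosts from GENCODE vM1. Let-7a-1 (chr13:48633548-48633641), let-7f-1 (chr13:48633198-48633286) and let-7d (chr13:48631381-48631483) lay in this order on the minus strand, with 261 bases between the first pair and 1714 bases between let-7f-1 and let-7d, and no host gene was annotated there. Let-7b (chr15:85537749-85537833, plus strand) lay 621 bases from let-7c-2 (chr15:85537033-85537127), without a host. Let-7f-2 (chrX:148346889-148346971, plus strand) lay in an intron of Huwe1, 785 bases from miR-98, which is in the same host. Let-7g (chr9:106081171-106081258, plus strand) was intronic in Wdr82, and let-7a-2 (chr9:41344799-41344894, plus strand) was intronic in the long non-coding RNA D230004N17Rik. Let-7c-1 (chr16:77599902-77599995, plus strand) lay within an intron of Gm11146 on the opposite strand. Let-7e (chr17:17967316-17967408, plus strand) and let-7i (chr10:122422696-122422780, minus strand) had no annotated host.

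Levels are CPM, the reads of a miRNA per 1000000 reads assigned to any miRNA in that library. The libraries held 14802675 to 59362011 such reads, and 3 reads, taken as the limit that a count of 0 allows, corresponded to 0.0505 to 0.203 CPM. These limits cover counting error only, since copies of one molecule made by PCR cannot be told from separate molecules. Female library 2 stood apart: it had the most reads but the fewest miRNAs detected, 660 against 790 to 915 in the other 5, and a median of 1846.5 reads per detected miRNA against 218 to 352. Results that rest on it are given with and without it. Of the marker lists, the 5 brain miRNAs summed to 226135 to 267219 CPM in the female and 180342 to 208825 CPM in the male libraries, so the labelled tissue was plainly represented. Skeletal muscle miRNAs (4) summed to 388 to 1180 CPM in females and 5497 to 6139 CPM in males, and epithelial miRNAs (6) summed to 429 to 1133 CPM in females and 7990 to 8284 CPM in males.

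The 10 passenger strands differed greatly in level, and one of them supplied most of the reads. Let-7d-3p was at 441.8, 632 and 361 CPM in the 3 female libraries, in numerical order here and below, and at 920.05, 977 and 1107 CPM in the 3 male libraries. Its mean of 740 CPM made up 80.8% of the summed mean level of the members. Next came let-7a-1-3p with a mean of 47.0 ± 18.1 CPM (SD, n = 6), let-7e-3p with 46.2 ± 9.84, let-7i-3p with 27.5 ± 14.8, let-7b-3p with 25.2 ± 8.17 and let-7c-1-3p with 20.8 ± 6.33 CPM. A lower tier of 4 members followed, with means of 3.52 ± 1.71 CPM for let-7f-1-3p, 2.43 ± 0.797 for let-7a-2-3p, 1.79 ± 1.64 for let-7f-2-3p and 0.881 ± 1.01 CPM for let-7g-3p. In this order, neighbours held the same order in 6 of 6 libraries at 2 steps only. Let-7d-3p was 15.7-fold above let-7a-1-3p, and let-7c-1-3p was 5.92-fold above let-7f-1-3p, each with p = 0.03125 in a two-sided exact paired permutation test, which is the smallest p that 6 libraries allow, and 0.14062 after adjustment over the 9 neighbouring pairs. The other 7 pairs of neighbours held their order in 3 to 5 libraries, with adjusted p-values of 0.28125 to 1 in the same exact test. Their order is thus not fixed by these 6 libraries, which does not show their levels to be alike.

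**Figure D1:**
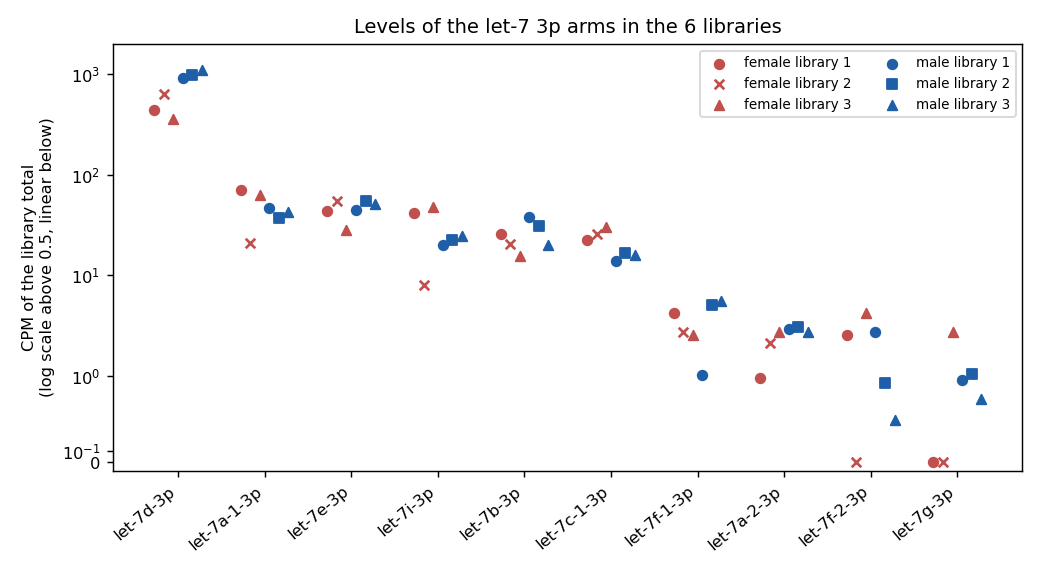
Level of each let-7 3p arm in each library, as CPM of the library total on an axis that is logarithmic above 0.5 and linear below, with red symbols for the female and blue symbols for the male libraries and crosses for female library 2. Let-7d-3p lies between 361 and 1107 CPM, 5 members have means between 20.8 and 47.0 CPM, and 4 have means between 0.881 and 3.52 CPM.

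The precursors are also known to fall into 2 classes by their last step of maturation: those of let-7a-2, let-7c-1 and let-7e can be cut by Dicer as Drosha leaves them, while the others need 1 uridine added first by a terminal uridylyl transferase. Levels did not follow this division. The 3 members of the first class had means of 2.43 to 46.2 CPM, and the 7 of the second class, let-7a-1-3p standing for 2 loci, had means of 0.881 to 740 CPM.

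Position in one cluster did not go with similar levels either. The 3 arms from chromosome 13 had means of 740, 47.0 and 3.52 CPM for let-7d, let-7a-1 and let-7f-1. Reads of let-7d-3p per read of let-7a-1-3p were 6.22, 30.1 and 5.70 in females and 19.6, 26.2 and 26.2 in the male libraries. The sexes overlapped in this ratio only through female library 2, and since let-7a-1-3p also counts let-7c-2-3p, the ratio is a lower limit for the locus itself.

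The comparison of the sexes asks which miRNAs are sex-biased in the brain at E15.5. Across all miRNAs, 1120 had at least 10 reads summed over the libraries and were tested with edgeR's quasi-likelihood test, and all 10 members were among them. Let-7d-3p was the 1 member called, and it was male-biased. Over all miRNAs tested, 95 or 8.48% were called, 36 (3.21%) male-biased and 59 (5.27%) female-biased, so the share among the members was close to the background. That split over all miRNAs depends on scaling, with 50 male-biased and 39 female-biased on library totals, 38 and 34 with the GC offset described below, and 119 and 109 with 1 factor from RUVr. The median log2 fold change, male over female, was -0.03 over the members and -0.02 over all miRNAs, with 5 members above and 5 below 0.

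Let-7d-3p averaged 478 ± 139 CPM in female and 1001 ± 95.7 CPM in male libraries (SD, n = 3 each). Every male library lay above every female library, with a gap from 632 to 920.05 CPM. On the scale of the edgeR fit, which divides by TMM factors, the log2 fold change was 0.92 with a standard error of 0.23 and an adjusted p of 0.00789, the 58th smallest p of 1120. Without female library 2 the log2 fold change was 1.26 with an adjusted p of 1.3e-07 by the same test. The call rested in part on female library 3 and male library 1: without the former the log2 fold change was 0.74 with an adjusted p of 0.07, and without the latter 1.04 with an adjusted p of 0.0955.

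Some measures of other tissue moved with the same contrast. All 4 skeletal muscle miRNAs and 5 of 6 epithelial miRNAs were called male-biased, with 1 epithelial miRNA at 0 in a library, and 2 of 5 brain miRNAs were called female-biased. Of the 4 miRNAs of red blood cells 1 was called male-biased, their sums being 673 to 1367 CPM in females and 1605 to 1984 CPM in males. The median log2 fold change of these 4 was -0.28, so not all of them were higher in males. None of the 4 miRNAs of leukocytes was called, with sums of 105 to 134 CPM in females and 121 to 141 CPM in males, nor was the liver miRNA, at 4.72 to 11.5 CPM in females and 5.84 to 16.1 CPM in males. The part of these tissues in the difference of let-7d-3p was not tested. In such bulk samples, fewer cells of a type and less RNA per cell cannot be told apart.

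The summed passenger level was higher in males with let-7d-3p included and overlapped between the sexes without it. The 10 members together were at 654, 766 and 560 CPM in females and at 1092, 1149 and 1269 CPM in the male libraries. Without let-7d-3p the same sums were 213, 134 and 198 CPM in females and 172, 172 and 162 CPM in males. The 8 guide arms summed to 119810 to 125237 CPM in females and 119736 to 140343 CPM in males, which also overlapped.

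**Figure D2:**
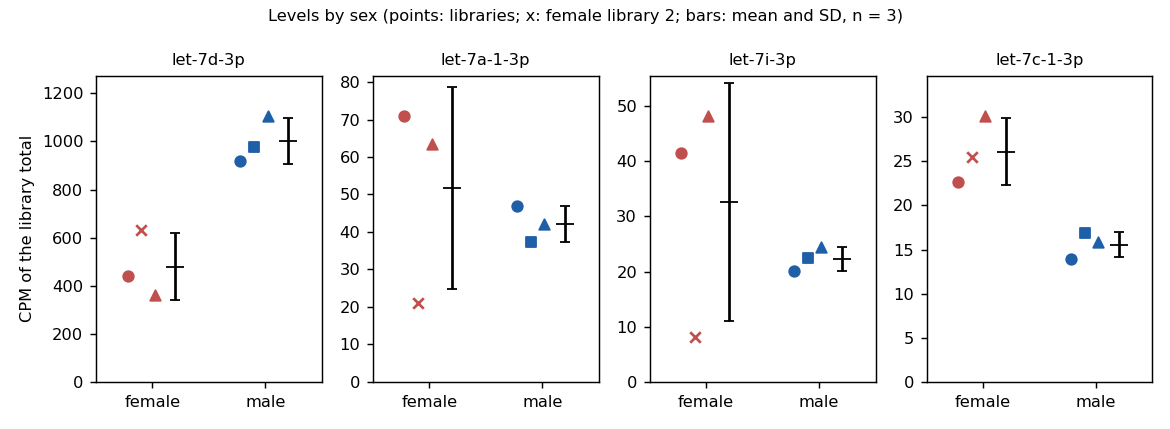
CPM of the library total for let-7d-3p, let-7a-1-3p, let-7i-3p and let-7c-1-3p in the female and male libraries, with points for libraries, a cross for female library 2 and black bars for the mean and SD of 3 libraries. The sexes do not overlap for let-7d-3p and let-7c-1-3p, and female library 2 lies below all males for let-7a-1-3p and let-7i-3p while the other 2 females lie above them.

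Let-7a-1-3p and let-7i-3p shared a pattern in which the females were split. Let-7a-1-3p was at 71.0, 20.99 and 63.4 CPM in the females, numbered 1 to 3, and at 46.9, 37.3 and 42.2 CPM in males. Let-7i-3p was at 41.5, 8.10 and 48.2 CPM in the female and at 20.1, 22.4 and 24.4 CPM in the male libraries. In both, female library 2 was the lowest of the 6 and the other 2 female libraries were the highest. With all libraries neither was called, the log2 fold changes being -0.40 (standard error 0.36) for let-7a-1-3p and -0.63 (0.46) for let-7i-3p, with adjusted p-values of 0.558 and 0.48 in edgeR's test. Without female library 2 both were called female-biased, at -0.75 with an adjusted p of 0.0271 and at -1.07 with an adjusted p of 0.00261, so that 3 of 10 members were then called against 203 of 1110 miRNAs.

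The members of this pair differ in GC content. Log2 fold changes rose with the GC content of the mature miRNA across 474 miRNAs (r = 0.317, a description across miRNAs that share libraries), and let-7a-1-3p has 36.4% GC while let-7i-3p has 59.1%. With a loess offset for base composition fitted per library, the log2 fold change of let-7a-1-3p turned to 0.27. That of let-7i-3p was -1.09 with this offset and was not called (edgeR adjusted p = 0.225). The part of GC content in these differences was not tested. With the offset and without female library 2, a combination added after the data were seen, let-7a-1-3p was at 0.08 (edgeR adjusted p = 0.896) and let-7i-3p at -1.59 (adjusted p = 2.8e-05). Let-7d-3p, with 50% GC, stayed male-biased under both settings, at 0.80 (adjusted p = 0.02) and 1.04 (adjusted p = 4.3e-05).

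Let-7c-1-3p was the other member whose libraries did not overlap between the sexes, and it was higher in females. It was at 22.6, 25.5 and 30.2 CPM in females and at 14.0, 16.8 and 15.9 CPM in the male libraries. The log2 fold change of -0.87 (standard error 0.41) missed the threshold, and its adjusted p was 0.247 by edgeR. Let-7c-1-3p and let-7d-3p were the 2 members with an unadjusted p below 0.05, against 18.4% of all miRNAs tested. They were also the members without overlap in TMM-scaled CPM, 1 higher in females and 1 in males, and over all miRNAs tested 23.8% did not overlap, 11.9% being higher in females and 12% in males. The adjusted p of let-7c-1-3p was 0.0291 with 1 RUVr factor in edgeR, and between 0.0606 and 0.607 under the other alternatives.

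Let-7e-3p and let-7b-3p gave no call, and the sexes overlapped in both. Let-7e-3p was at 43.7, 54.3 and 28.4 CPM in female and at 45.1, 54.7 and 50.9 CPM in male libraries, and its log2 fold change was 0.12 (standard error 0.34). It had the smallest spread of the members, with a coefficient of variation of 21.3% over the 6 libraries. Let-7b-3p was at 25.9, 20.6 and 15.7 CPM in female and at 37.8, 31.1 and 19.9 CPM in male libraries, and its log2 fold change was 0.38 (standard error 0.39).

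The 4 rare members were read from few counts. Let-7f-1-3p had 63, 163 and 91 reads in females and 19, 222 and 130 reads in males. Let-7a-2-3p had 14, 126 and 98 reads in females and 55, 136 and 64 reads in males. Let-7f-2-3p had 38, 0 and 151 reads in females and 51, 37 and 9 reads in males. Let-7g-3p had 0, 0 and 98 reads in females and 17, 46 and 14 reads in males. The 0 of let-7f-2-3p and let-7g-3p in female library 2, the library with the most reads, allows up to 0.0505 CPM, and that of let-7g-3p in female library 1 allows up to 0.203 CPM. Their standard errors of 1.14 to 2.57 on the log2 scale leave differences of several-fold in either direction undetectable at this spread between libraries.

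**Figure D3:**
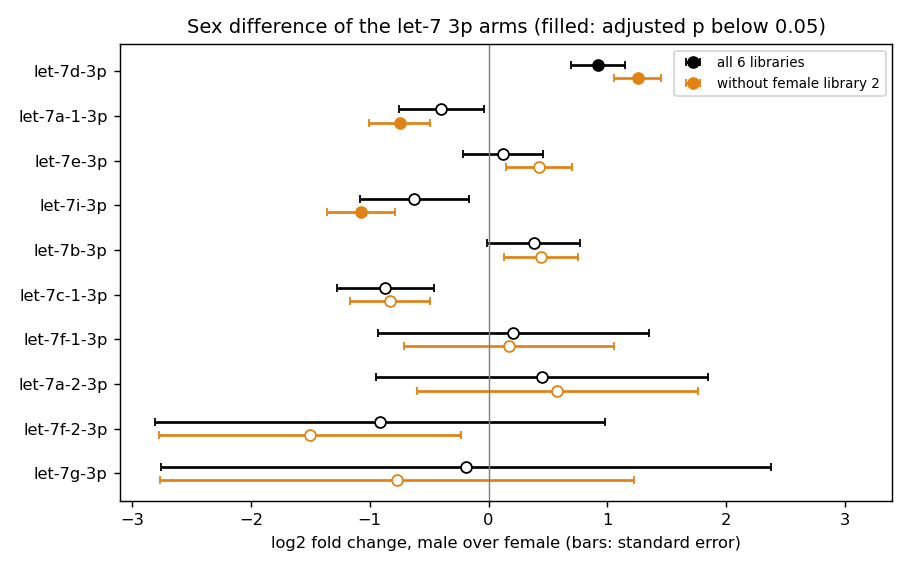
Log2 fold change, male over female, of each let-7 3p arm from edgeR's quasi-likelihood fit with all 6 libraries (black) and without female library 2 (orange), with bars for the standard error and filled points for an adjusted p below 0.05. Let-7d-3p is above 0 and called in both fits, let-7a-1-3p and let-7i-3p are called below 0 only without female library 2, and the 4 rarest members have the widest bars.

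Guide levels gave another picture of the same loci. The 8 guide arms had means between 2352 CPM for let-7b-5p and 28741 CPM for let-7c-5p, a 12.2-fold span, against a 840-fold span of the passenger strands. The order could be opposite: let-7g-5p averaged 22941 CPM, 6.25-fold above let-7d-5p at 3670 CPM, while let-7d-3p was 840-fold above let-7g-3p. The latter fold rests on the few reads of let-7g-3p and was 710 to 1599-fold with 1 library left out, the highest without female library 3, which holds most of them. None of the 8 guides was called between the sexes, with log2 fold changes from -0.44 for let-7f-5p to 0.46 for let-7e-5p, and none had an unadjusted p below 0.05 or was called by DESeq2. Their calls depended on the setting. With the GC offset, let-7d-5p and let-7e-5p were male-biased, at 0.75 (edgeR adjusted p = 0.0495) and 0.83 (adjusted p = 0.0396), where 72 of 1120 miRNAs were called. With the GC offset and replicate block, let-7a-5p, let-7d-5p and let-7e-5p were male-biased (edgeR adjusted p = 0.0159, 0.00276 and 4.4e-04), where 102 of 1120 were called. With 1 RUVr factor in edgeR, let-7e-5p was male-biased (adjusted p = 0.0235), among 228 of 1120 called. Without female library 2, let-7e-5p was male-biased at 0.59 (edgeR adjusted p = 0.0285). With DESeq2 and 1 RUVr factor, let-7d-5p and let-7e-5p were male-biased and let-7f-5p female-biased, among 257 of 1120 called. With the GC offset and without female library 2, 6 of the 8 guides were male-biased, let-7f-5p among them with its direction turned, and 161 of 1110 miRNAs were called, 81 of them male-biased.

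Reads of the 3p arm per 1000 reads of the 5p arm compare both products of one precursor within a library, where scaling cancels. An effect of GC content need not cancel. Guide arms can be alike too: let-7c-5p differs at a single base from let-7a-5p and from let-7b-5p. Let-7e-5p and let-7f-5p each also differ at a single base from let-7a-5p. The division of reads between such guides, and so their levels and ratios, is as uncertain as that of the close 3p pairs. For let-7d the 3p reads per 1000 were 149, 196 and 124 in females and 205, 202 and 309.6 in males. Let-7e and let-7b averaged 11.2 ± 2.01 and 10.8 ± 2.45 per 1000 (SD, n = 6). Let-7i was at 1.84, 0.392 and 1.75 in females and at 0.834, 0.945 and 1.05 in males. Let-7g averaged 0.0360 ± 0.0365 per 1000. For guides shared by several loci the passenger arms were summed, which gave 1.44 ± 0.678 for let-7a and let-7c together and 0.306 ± 0.0953 for let-7f. The lowest library of let-7d, at 124, was above the highest library of any other let-7 precursor or summed group, which was let-7e in female library 2 at 14.7.

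**Figure D4:**
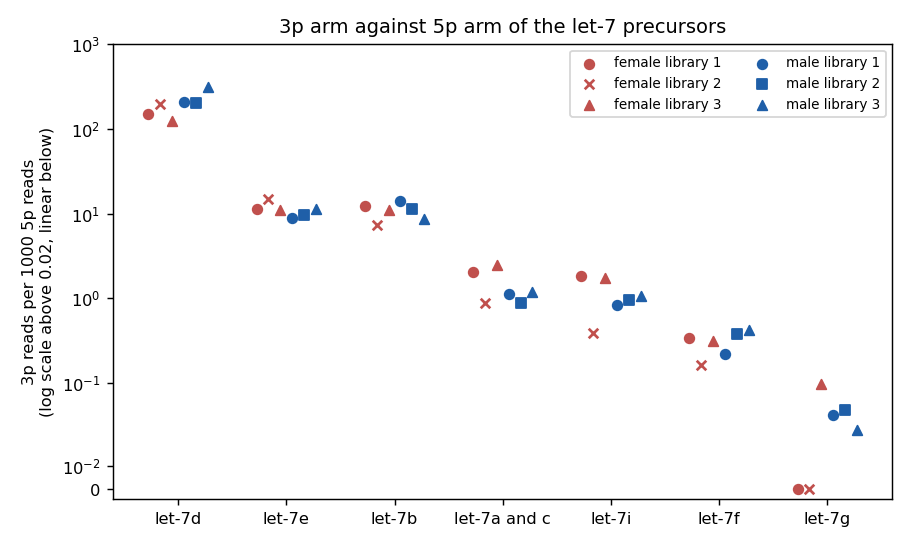
Reads of the 3p arm per 1000 reads of the 5p arm for each let-7 precursor or group of precursors, by library, on an axis that is logarithmic above 0.02 and linear below, with red symbols for females, blue symbols for males and crosses for female library 2. Let-7d lies between 124 and 309.6 per 1000 in all libraries, let-7e and let-7b average 11.2 and 10.8, and let-7g is at 0 in female libraries 1 and 2.

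Set beside the other miRNAs, let-7b, let-7e, let-7g and let-7i kept less of their minor arm than most of the precursors compared, and let-7d kept more. Let-7a, let-7c and let-7f, whose guides are shared by several loci, have no such value for single precursors. Compared were 364 precursors with both arms named and at least 10 reads of each arm summed over the libraries. In these, the less abundant arm had a median of 93.6 reads per 1000 reads of the more abundant one. Under this filter a rare precursor cannot reach a low value, so the median and the ranks below depend in part on abundance. Summed over libraries, let-7g was at 0.038 per 1000, and 1 of the 364 pairs had a lower value. Let-7i was at 1.04 with 11 pairs below it, let-7b at 9.89 with 74 below and let-7e at 11.4 with 79 below. Let-7d, at 199, was above 241 pairs.

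The ratio of the arms did not pass the test for sex in any precursor. For let-7d the log2 difference of the ratio was 0.61 with a standard error of 0.25, male over female. All males lay above all females, and limma's test gave an unadjusted p below 0.05 and an adjusted p of 0.512 over the 364 pairs. Of all pairs, 0 were called by limma and by edgeR's interaction of sex and arm, 35 or 9.62% had an unadjusted p below 0.05 in limma, and 17.6% did not overlap between the sexes. The male excess of let-7d-3p was therefore not shown to differ from that of let-7d-5p, nor shown to be the same. On simulated data, limma's test recovered 14% of ratio differences of log2 2 or more and 0.408% of those of log2 1. These shares are averages over 295 to 311 pairs of all abundances, with the arms drawn independently. The power for a pair as abundant as let-7d was not simulated, so no conclusion on a difference of 0.61 is drawn from the absence of calls. Let-7d-5p was at 2956, 3228 and 2921 CPM in females and at 4495, 4844 and 3575 CPM in males, all males above all females on this scale though not after TMM scaling, with a log2 fold change of 0.38 (edgeR adjusted p = 0.375). With the GC offset, the 5p and 3p arms of let-7d were both male-biased by nearly the same amount, at 0.75 and 0.80. Without female library 2, 17 of 360 pairs were called, and among them was let-7i, whose ratio was lower in males at -0.93 (adjusted p = 0.0348), while let-7d was at 0.78 (adjusted p = 0.15).

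Other miRNAs of the same clusters were read as neighbours made from the same loci, 13 mature arms in all. None was called, against 8.48% of all miRNAs tested, and 5 had an unadjusted p below 0.05, against 206 of 1120 (18.4%) over all. Beside let-7c-1, miR-99a-5p was at 32326, 32639 and 39322 CPM in female and 22008, 22671 and 25068 CPM in male libraries, with a log2 fold change of -0.70 (edgeR adjusted p = 0.116), the same direction as let-7c-1-3p, while its rare 3p arm, with 1 to 82 reads per library, was at 1.27 with a standard error of 2.03. Its cluster partner miR-125b-2-3p, the passenger arm of a brain-enriched miRNA, was at -0.37 (adjusted p = 0.34). Beside let-7a-2, miR-100-5p had a log2 fold change of -0.55 (adjusted p = 0.174), while let-7a-2-3p was at 0.45 with a standard error of 1.39. In the same cluster, miR-125b-1-3p was at -0.0015 (standard error 0.20) and the rare miR-100-3p at -0.49 (1.74). MiR-125b-5p, made from this cluster and from that of let-7c-1, was at 0.08 (0.33). Beside let-7e, the passenger arms miR-99b-3p and miR-125a-3p were at 0.41 and 0.73 (adjusted p = 0.224 and 0.164) and let-7e-3p at 0.12. Their 5p arms were at 0.03 for miR-99b-5p and -0.02 for miR-125a-5p, and the latter was male-biased without female library 2, at 0.65 (adjusted p = 0.0229 by edgeR). With the GC offset the 3p arms were at 0.11 and 0.32. All male libraries were above all female libraries for miR-99b-3p and miR-125a-3p, and not for let-7e-3p. Of all miRNAs tested, 12% were apart in this direction in TMM-scaled CPM. These partner calls depend on the tool: miR-99a-5p and miR-100-5p were female-biased and miR-125a-3p male-biased by DESeq2, with adjusted p-values of 0.00314, 0.0433 and 0.0465, among 132 of 1120 miRNAs that this tool called. On simulated data, 20.6% of the calls by DESeq2 were false, against 6.26% of those by edgeR. The simulated counts were drawn in 5 runs with dispersions estimated by edgeR, which may favour edgeR, so these shares do not rank the tools on the real data. The study itself used DESeq2 and also RUVr. With DESeq2 and 1 RUVr factor, 5 partners were called, among them miR-99a-5p (adjusted p = 1.8e-04), where 257 of 1120 miRNAs were called.

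MiR-98, a let-7 relative that lies beside let-7f-2 in Huwe1 and carries the let-7 guide seed, had a passenger arm that was easier to read than that of its neighbour. MiR-98-3p was at 13.4, 5.12 and 8.83 CPM in female and at 7.87, 13.1 and 9.78 CPM in male libraries, with a mean of 9.67 CPM against 1.79 CPM for let-7f-2-3p. Its log2 fold change was 0.09 (standard error 0.64), and that of miR-98-5p was -0.54 (adjusted p = 0.138 in edgeR's test). The rows let-7j and let-7k name no arm and are no members: let-7j was at 849 to 1373 CPM and let-7k had 0 to 36 reads.

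The miRNAs whose pattern over the 6 libraries was most like that of let-7d-3p were miR-351-5p, miR-676-3p and miR-25-3p, with Pearson's r of log2(CPM + 1) at 0.995, 0.989 and 0.985. They were picked as the highest among the 525 that averaged 100 reads or more per library, and the points share the split by sex. Of these, miR-351-5p was called male-biased, with a log2 fold change of 0.88 (adjusted p = 0.0122 in edgeR's test), and miR-676-3p at 0.59 and miR-25-3p at 0.21 were not.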

How the data were processed

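Small RNA-seq libraries (TruSeq, 50 bp single-end) of 6 pools of whole brain RNA were analysed. Per the labels and the methods of the study, adaptors were removed with cutadapt 1.15, reads were mapped with Bowtie 1.2.1 to miRBase v.21 and mm9, and known miRNAs were quantified with miRDeep2. The authors deposited raw counts of reads for each mature miRNA, without normalization.

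From these counts, CPM were computed on library totals. Counts of miRNAs with at least 10 reads over the 6 libraries were scaled by TMM and tested for sex with edgeR 4.0.16 (quasi-likelihood, Benjamini-Hochberg, threshold 0.05) in R 4.3.3. Each standard error was obtained as |log2 fold change| over the root of F. Arm ratios, log2((3p + 0.5)/(5p + 0.5)), were tested with limma 3.58.1. Alternatives were DESeq2 1.42.0, 1 RUVr factor written out from edgeR's deviance residuals, other scalings and filters, a GC offset (loess, span 0.75; 84.9% of tested miRNAs had a sequence), a replicate block and each library left out. Members and lists (named: the 10 members, guide arms, cluster partners, other let-7 rows, the 3 miRNAs most like a called member or the summed members, markers of 6 cell types) were chosen with earlier results of these data known. The tests were tried on simulated data first.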

Additional observations from a re-analysis of the deposited data

How the results depend on the processing

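Let-7d-3p stayed male-biased in direction under all 17 alternatives, with log2 fold changes of 0.74 to 1.26, and was below the threshold in 15, with adjusted p-values from 1.5e-09 to 0.0955. Over all miRNAs, 228 were called with 1 RUVr factor in edgeR, 257 with 1 in DESeq2 (152 male-biased, 105 female-biased), 161 with the GC offset and without female library 2, and 30 to 203 with 1 library left out, the lowest without male library 1 and the highest without female library 2. Of the members, 2 were called with RUVr in edgeR, 2 with the GC offset and without female library 2, and 0 to 3 with 1 library left out. Of the partners, 3 were called by DESeq2, 4 and 5 with RUVr in edgeR and DESeq2, 1 with at least 10 reads in every library, 2 with the GC offset and replicate block, 4 with the GC offset and without female library 2, and 0 to 2 with 1 library left out. Of the arm ratios, 16 of 151 were called with at least 10 reads of each arm in every library, and 0 to 17 with 1 library left out. Neighbours in the order of levels kept their order in all libraries at 2 to 3 steps. The median log2 fold change of all miRNAs moved between -0.17 and 0.29.

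The labels do not state whether the replicate numbers pair the libraries. Deviations of same-numbered libraries correlated at -0.08, 0.03 and 0.16, which cannot decide on pairing with so few libraries. With the replicate block, 92 miRNAs, 1 member and 1 partner were called.

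These log2 fold changes changed sign. Let-7f-5p and miR-98-5p were called in both directions, female-biased with RUVr in DESeq2 at -0.43 and -0.48 and male-biased with the GC offset and without female library 2. With the GC offset, alone, with the replicate block and without female library 2 in this order, let-7a-1-3p was at 0.27, 0.32 and 0.0841, let-7e-3p at -0.23, -0.21 and -0.0799, let-7f-5p at 0.27, 0.31 and 0.60, let-7g-5p at 0.22, 0.27 and 0.54, let-7i-5p at 0.28, 0.29 and 0.41, and miR-98-5p at 0.11, 0.24 and 0.69. Let-7i-5p was at 0.0051 on library totals. Let-7f-1-3p was at -0.055 with the block. Let-7f-2-3p was at 1.08 and 1.19 with RUVr in edgeR and DESeq2, 0.23 with the block and 0.90 with block and GC offset. Let-7g-3p was at 0.0657 with upper quartile scaling, 1.71 and 1.74 with RUVr, 5.21 with the block and 4.94 with block and GC offset. MiR-99b-5p was at -0.026 with at least 10 reads in every library and, with the GC offset alone, with the block and without female library 2, at -0.2468, -0.2458 and -0.163. MiR-125a-5p was at 0.1456 on library totals, 0.0194 by DESeq2, 0.2804 and 0.3045 with RUVr in edgeR and DESeq2, 0.0808 without a filter, 0.1571 with the block, 0.01 with block and GC offset and 0.4332 with the GC offset and without female library 2. With 1 library left out, the ranges were -0.11 to 0.42 for let-7e-3p, -0.11 to 0.68 for let-7f-1-3p, -0.78 to 7.68 for let-7g-3p, -0.10 to 0.48 for let-7b-5p, -0.0049 to 0.42 for let-7c-5p, -0.20 to 0.47 for miR-98-3p, -0.11 to 0.24 for miR-99b-5p, -0.25 to 0.65 for miR-125a-5p, and, for the arm ratios, -0.066 to 0.34 for let-7b and -0.93 to 0.18 for let-7i. The cause of these changes was not tested.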

Other observations

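By the same measure, the miRNAs most like the summed level of the 10 let-7 3p arms were miR-351-5p, miR-25-3p and miR-574-3p, with Pearson's r of 0.986, 0.982 and 0.976 over the 6 libraries.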
